A study of Mus musculus with 9 samples.

Results

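The 10 genes described here mark Kupffer cells, the macrophages that live in the sinusoids of the liver: Clec4f, Vsig4, Timd4, Cd5l, Marco, Adgre1, Cd163, Folr2, Id3, and Nr1h3. They were taken by name, from a list drawn up with earlier results of these data known, and all 10 were among the 24326 genes with an FPKM estimate in every mouse. The bulk livers of 9 wild-type C57BL/6 mice were sequenced 48 hours after treatment, 3 of them (mice 2, 5, and 9) after FGK45, an antibody that activates the receptor CD40, and 6 (mice 3, 4, 7, 8, 11, and 12) as controls, whose labels name PBS. The study used sex-matched young adult mice unless it stated otherwise, and it left out of its analyses a minority of anti-CD40 mice that lacked the fall of blood B cells the antibody usually causes. Whether any such mouse would have belonged to these groups is not given in the sources used here. No other treatment, transgene, or tumor is named in the labels of either group.

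Kupffer cells descend largely from embryonic precursors and renew themselves in place, with their identity maintained by signals from neighboring endothelial, stellate, and liver parenchymal cells and by the transcription factors LXRα and Id3. They clear microbes, complement-coated particles, hemoglobin, and dying cells from the blood through a set of surface receptors that monocytes mostly lack. During acute liver inflammation, Kupffer cell markers can fall while monocytes arrive and become macrophages. The antibody was given in the study to learn how CD40 activation affects the liver, and the comparison asks how the genes that define the resident macrophage stood 48 hours later.

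In the livers of anti-CD40 mice, 9 of the 10 genes had fallen, and in each of these 9 every anti-CD40 mouse was below every control mouse. The receptors Clec4f, Vsig4, and Cd163 were nearly absent, Folr2, Cd5l, and Timd4 were reduced by between 7.42- and 13.3-fold, and Adgre1, Marco, and Nr1h3 were reduced by between 1.67- and 3.06-fold. Id3 was the 1 gene that was not called, and none was higher. Across the liver transcriptome, limma called 45.1% of the 13807 genes tested at an adjusted p under 0.05, 21.7% lower and 23.5% higher. The groups did not overlap for 19.6% that were lower and for 22.7% that were higher. The median log2 fold change of the 10 genes was -3.11, against 0.0056 over all genes tested. Genes averaging under 0.1 FPKM were not tested, and all 10 passed. Cd163 did so only through the control mice, and a gene that passes in this way had to differ between the groups. FPKM by definition counts fragments against the length of the transcript and the reads mapped in each library. The deposited values were already near a common scale, with the median ratio of a mouse to the geometric mean over mice at 1.004 to 1.01. FPKM divides by transcript length although these reads come from the 3′ end of transcripts, so levels are compared here between mice for 1 gene and not between genes. In bulk liver, fewer Kupffer cells and less RNA of these genes per Kupffer cell cannot be told apart.

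**Figure D1:**
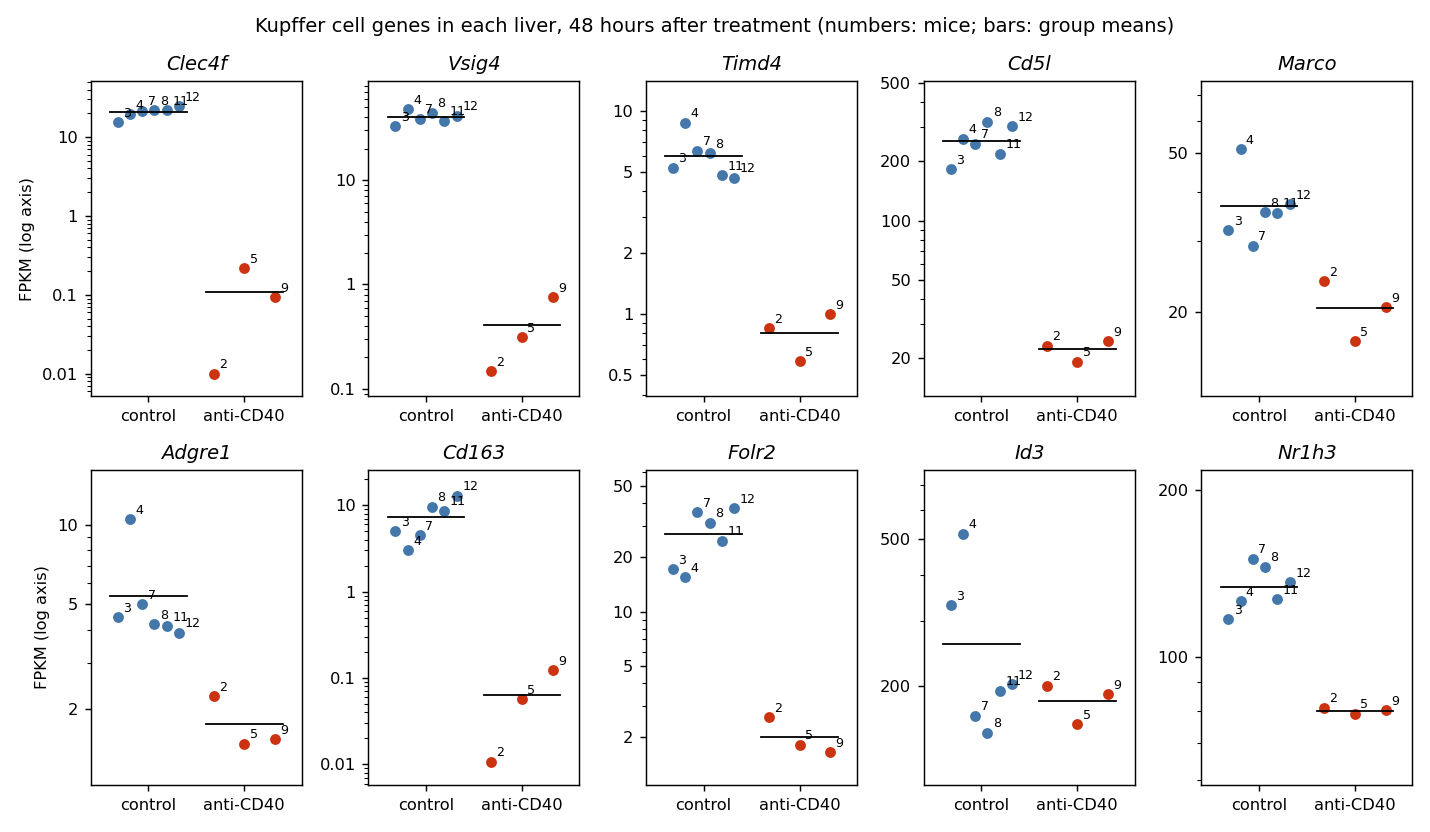
FPKM on a log axis of the 10 Kupffer cell genes in each liver, with control mice in blue, anti-CD40 mice in red, mouse numbers beside the points, and bars at the group means. In 9 panels the 3 red points lie below all 6 blue points, and in the Id3 panel the groups overlap. The lowest Clec4f point, in anti-CD40 mouse 2, is at the table's floor of 0.01.

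Clec4f encodes a C-type lectin that in mouse liver is found almost solely on Kupffer cells. In mm10 it occupies chromosome 6 from 83644542 to 83656116. Anti-CD40 mouse 2 was at the lowest value the table gives, 0.01, mouse 5 had an FPKM of 0.218, and mouse 9 had 0.0938, whereas the control mice ranged from 15.3 to 24.8 with a median of 21.6. The lowest control liver thus had far more Clec4f than the highest anti-CD40 liver. The treated livers averaged 0.107 ± 0.105 (SD, n = 3) and the controls 20.8 ± 3.17 (SD, n = 6), a 193-fold difference of mean FPKM. On log2(FPKM + 0.1), limma gave a change of -6.77 with an SE of 0.28 (adjusted p = 1.499e-07). The steps between the values correspond to 0, 10, and 4 reads in the treated mice, in the same order, and to 641 to 982 reads in a control mouse. These are the smallest whole numbers of reads that the values allow, and true reads could be higher. With so few reads the size of the log2 change depends on the pseudocount of 0.1 added before taking logs. It was -4.29 with a pseudocount of 1 and -8.04 with 0.01.

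Vsig4 encodes a complement receptor, also called CRIg, that binds fragments of C3 on circulating bacteria. It lies on chromosome X from 96247203 to 96293438. Anti-CD40 mice 2, 5, and 9 had FPKM values of 0.147, 0.313, and 0.756, and control mice ranged from 33.1 to 47.7 with a median of 40.2. As with Clec4f, there was no overlap, and mouse 3 was the lowest control. The mean was 0.405 ± 0.315 (SD, n = 3) against 40.4 ± 5.25 (SD, n = 6), for which limma gave a log2 change of -6.50 with an SE of 0.31 (adjusted p = 3.25e-07). The reads that these values allow were 4, 8, and 18 in the anti-CD40 mice, 30 in all, and 5676 in all in the control mice.

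The promoters of both genes are given because Clec4f and Vsig4 had the lowest log2 changes of the 10 with 0.1 added to the FPKM, and those of Timd4, Cd5l, and Marco follow for comparison. Each covers the 250 bases before and 50 after a start site annotated by RefSeq on GRCm38.p6, the assembly that mm10 is made from, and is written 5′ to 3′ on the strand of the gene. Capitals mark matches on either strand to GAGGAA, the core of the site bound by the myeloid transcription factor PU.1, or to AGGTCA, the binding unit of nuclear receptors such as LXRα. The Clec4f window is chr6:83656067-83656366 on the minus strand and the Vsig4 window is chrX:96293389-96293688 on the minus strand. The Timd4 window is chr11:46810549-46810848 and the Cd5l window is chr3:87357631-87357930, both on the plus strand, and the Marco window is chr1:120504975-120505274 on the minus strand.
Clec4f: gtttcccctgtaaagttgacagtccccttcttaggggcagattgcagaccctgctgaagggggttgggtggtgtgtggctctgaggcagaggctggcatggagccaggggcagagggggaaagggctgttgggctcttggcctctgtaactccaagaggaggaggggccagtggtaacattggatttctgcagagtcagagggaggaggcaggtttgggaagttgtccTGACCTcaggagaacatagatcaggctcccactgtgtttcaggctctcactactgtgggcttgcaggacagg
Vsig4: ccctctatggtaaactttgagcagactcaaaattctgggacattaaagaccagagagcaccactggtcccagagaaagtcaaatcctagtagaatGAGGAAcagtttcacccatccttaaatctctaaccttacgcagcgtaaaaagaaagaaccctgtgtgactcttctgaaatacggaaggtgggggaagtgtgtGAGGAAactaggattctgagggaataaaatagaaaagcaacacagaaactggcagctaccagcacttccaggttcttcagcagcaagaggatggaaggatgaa
Timd4: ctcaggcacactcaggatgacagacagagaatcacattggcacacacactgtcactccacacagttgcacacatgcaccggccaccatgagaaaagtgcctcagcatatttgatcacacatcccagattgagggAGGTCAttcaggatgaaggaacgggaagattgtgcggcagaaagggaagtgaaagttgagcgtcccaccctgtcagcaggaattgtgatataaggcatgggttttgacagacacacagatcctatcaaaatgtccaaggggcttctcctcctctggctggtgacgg
Cd5l: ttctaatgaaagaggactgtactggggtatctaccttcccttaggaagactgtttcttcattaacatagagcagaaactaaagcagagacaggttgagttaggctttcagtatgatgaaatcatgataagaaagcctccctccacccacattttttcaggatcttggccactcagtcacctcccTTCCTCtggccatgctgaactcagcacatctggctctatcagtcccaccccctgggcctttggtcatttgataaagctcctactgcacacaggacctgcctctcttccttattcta
Marco: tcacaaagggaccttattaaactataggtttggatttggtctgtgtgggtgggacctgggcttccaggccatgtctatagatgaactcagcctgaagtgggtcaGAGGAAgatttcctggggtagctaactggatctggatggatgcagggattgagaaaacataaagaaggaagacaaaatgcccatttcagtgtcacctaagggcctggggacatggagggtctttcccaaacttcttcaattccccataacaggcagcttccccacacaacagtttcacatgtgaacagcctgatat

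Promoter windows of 9 of the 10 genes, 11 windows in all, were matched by symbol, with none for Adgre1. GAGGAA was found in windows of 5 of the 9 genes (Cd5l, Id3, Marco, Nr1h3, and Vsig4) and in 28.3% of all 32851 promoter windows in the RefSeq table. In Vsig4 it starts at -155 and -53 relative to the start site, in Cd5l at -66, and in Marco at -146. AGGTCA was found in Clec4f, at -22, and in Timd4, at -116, and in 16.3% of all windows. E-boxes (CANNTG), to which the E proteins held in check by Id3 bind, were found in 6 of the 9 genes and in 72.3% of all windows. CANNTG reads the same on both strands, so a match on both is 1 site. The LXR element, made of 2 AGGTCA units with 4 bases between them, was in windows of none of the 9 genes, against 0.0152% of all windows. The RBPJ site GTGGGAA of Notch signaling and the TATA box TATAAA were found in none of them either, against 6.38% and 13.6% of all windows, and the SMAD motif GGCGCC was in Nr1h3 alone, against 11.9%. A match of letters is a description of the window and not evidence of binding.

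Timd4 encodes Tim-4, a receptor for the phosphatidylserine shown by dying cells, and marks Kupffer cells of embryonic origin. It lies on chromosome 11 from 46810799 to 46844333. Anti-CD40 mice 2, 5, and 9 had FPKM values of 0.847, 0.584, and 0.993, and control mice had between 4.67 and 8.73 with a median of 5.70. The groups did not overlap, but Timd4 remained measurable in all 3 anti-CD40 livers, in which the values allow 37, 24, and 38 reads. The mean was 0.808 ± 0.207 (SD, n = 3) against 5.99 ± 1.51 (SD, n = 6), a 7.42-fold difference for which limma gave a log2 change of -2.74 with an SE of 0.22 (adjusted p = 6.506e-06).

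Cd5l encodes a secreted protein, also called AIM, that keeps macrophages from apoptosis and is a known target of LXRα. It lies on chromosome 3 from 87357881 to 87371074. FPKM values of the treated mice 2, 5, and 9 were 23.2, 19.2, and 24.5, against a control range of 182 to 317 with a median of 253. All 3 anti-CD40 mice were thus close together and well below mouse 3, the lowest control. The mean was 22.3 ± 2.74 (SD, n = 3) against 255 ± 50.8 (SD, n = 6), an 11.4-fold difference for which limma gave a log2 change of -3.49 with an SE of 0.18 (adjusted p = 4.753e-07).

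Cd163, the receptor for complexes of hemoglobin with haptoglobin, lies on chromosome 6 from 124304651 to 124330527. In treated mice 2, 5, and 9 it had an FPKM of 0.0107, 0.0570, and 0.122, and in control mice it had between 3.00 and 12.9 with a median of 6.80. The control mice spread more widely than for Clec4f or Vsig4, with mouse 4 lowest and mouse 12 highest, yet all stood above the anti-CD40 mice. The log2 change from limma was -5.39 with an SE of 0.43 (adjusted p = 6.247e-06). It depends strongly on the pseudocount, at -2.83 with 1 and -6.83 with 0.01, since the anti-CD40 mean of 0.0634 ± 0.0561 (SD, n = 3) is below the pseudocount of 0.1. Hp, which encodes haptoglobin and is made by hepatocytes, rose from 3409 ± 1555 (SD, n = 6) in controls to 15780 ± 4847 (SD, n = 3), a log2 change of 2.26 (limma, adjusted p = 0.000259). Hmox1, heme oxygenase, which breaks down the heme taken up, rose from 10.2 ± 2.83 (SD, n = 6) in controls to 25.6 ± 3.32 (SD, n = 3), a log2 change of 1.35 (limma, adjusted p = 0.000346).

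Folr2 encodes folate receptor β, found on resident macrophages of many tissues. It lies on chromosome 7 from 101839988 to 101857190. Anti-CD40 mice 2, 5, and 9 had FPKM values of 2.59, 1.82, and 1.66, and control mice ranged from 15.6 to 37.5 with a median of 27.9. Mouse 4 was the lowest control for this gene too, and the groups did not overlap. The mean was 2.02 ± 0.4996 (SD, n = 3) against 27.0 ± 9.31 (SD, n = 6), a 13.3-fold difference for which limma gave a log2 change of -3.62 with an SE of 0.30 (adjusted p = 7.295e-06).

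Marco and Adgre1, surface receptors that other macrophages can also carry, had smaller falls. Marco encodes a scavenger receptor that binds bacteria and particles, on chromosome 1 from 120474538 to 120505084. After anti-CD40, mice 2, 5, and 9 had FPKM values of 23.8, 16.9, and 20.5, and control mice had from 29.2 to 51.1 with a median of 35.5. Mouse 4 was the highest control and stood apart from the others. The mean was 20.4 ± 3.49 (SD, n = 3) against 36.8 ± 7.60 (SD, n = 6), a 1.80-fold difference for which limma gave a log2 change of -0.84 with an SE of 0.18 (adjusted p = 0.00301). With the acute phase genes Saa1, Saa2, and Saa3 removed and the mice rescaled to a common total, the median of all genes moved to 0.35 and the fold change of Marco to -0.47, with an adjusted p of 0.0492.

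Adgre1 encodes F4/80, the adhesion receptor by which mouse macrophages are commonly stained, on chromosome 17 from 57358686 to 57483529. Anti-CD40 mice 2, 5, and 9 had FPKM values of 2.24, 1.48, and 1.54, and control mice had from 3.90 to 10.5 with a median of 4.33. Mouse 4 had by far the highest value, and the other control mice lay near the median. The mean was 1.75 ± 0.421 (SD, n = 3) against 5.36 ± 2.53 (SD, n = 6), for which limma gave a log2 change of -1.49 with an SE of 0.29 (adjusted p = 0.00209). With that mouse left out, limma gave -1.28 with an SE of 0.16 (adjusted p = 0.000145). These values allow 151, 94, and 91 reads in the treated mice and 214 to 658 in a control mouse.

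**Figure D2:**
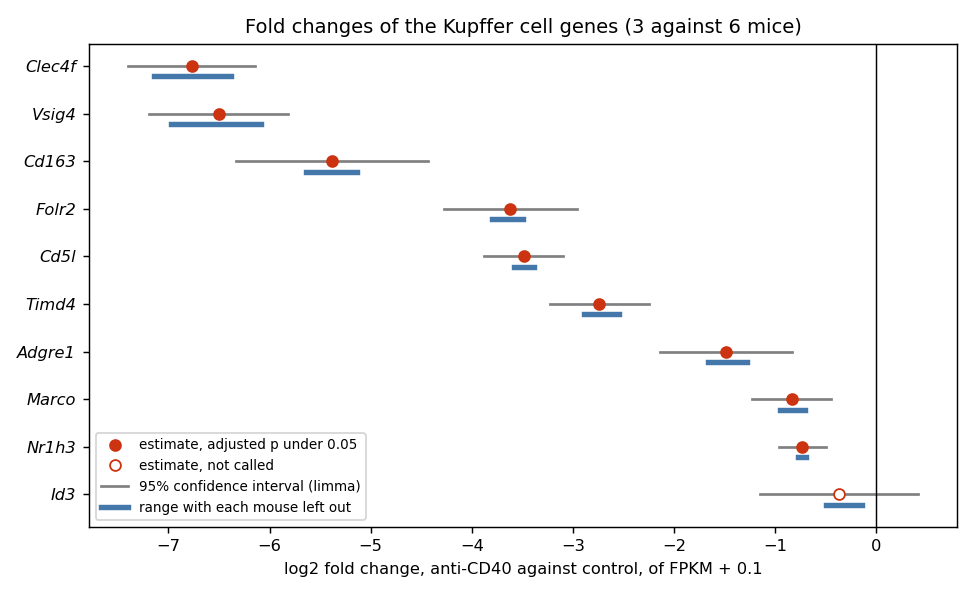
Log2 fold change of each Kupffer cell gene in anti-CD40 against control livers (3 against 6 mice) on the log2(FPKM + 0.1) scale, with its 95% confidence interval in gray and, in blue, the range when each mouse was left out in turn. Clec4f, at -6.77, and Vsig4, at -6.50, are farthest from 0, and the interval of Id3, from -1.15 to 0.41, includes 0.

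The list holds 2 regulators of transcription, both of which are also expressed outside macrophages in the liver. Nr1h3 encodes LXRα, a nuclear receptor for oxysterols that hepatocytes express as well, on chromosome 2 from 91184061 to 91195116. Treated mice 2, 5, and 9 had FPKM values of 81.1, 78.9, and 80.1, and control mice had from 117 to 150 with a median of 132. The 3 anti-CD40 mice differed very little from each other, and none of the control mice was as low. The mean was 80.0 ± 1.06 (SD, n = 3) against 134 ± 12.7 (SD, n = 6), a 1.67-fold difference for which limma gave a log2 change of -0.73 with an SE of 0.11 (adjusted p = 0.000272). Without the Saa genes and with rescaling it was -0.37 and was still called.

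Id3 encodes a helix-loop-helix protein that binds E proteins and keeps them from DNA, and Kupffer cell development depends on it. It lies on chromosome 4 from 136143822 to 136145392. For anti-CD40 mice 2, 5, and 9 the FPKM was 200, 158, and 190, and in control mice it ranged from 149 to 517 with a median of 198. The anti-CD40 values lay within the control range, whose spread came largely from mouse 4 and, with 330, mouse 3. The mean was 183 ± 22.3 (SD, n = 3) against 260 ± 141 (SD, n = 6), and the log2 fold change was -0.37 with a 95% confidence interval from -1.15 to 0.41 (adjusted p = 0.418 from limma). This interval includes a decrease of more than 2-fold, so a smaller fall of Id3 like that of Marco or Nr1h3 is not excluded with these mice. The estimate was -0.14 without mouse 4 and turned to 0.10 with quantile normalization, and it was not called in either.

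For each of the 9 genes that fell, the exact permutation test over the 84 ways to split the mice into 3 and 6 gave p = 0.0238, 2-sided, the smallest this design allows. That p was 0.476 for Id3 (exact permutation test). Each of the 9 genes remained called in all 18 settings tried (9 alternatives and 9 fits without 1 mouse). Cd163 is among the 9, and since it passed the filter through the control mice alone, its p and its calls support nothing by themselves. The labels do not say whether the mice were treated or processed together.

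To see whether the genes fell by unequal amounts, each was set against Adgre1 in the same mouse, as the log2 ratio of the values after adding 0.1. Relative to Adgre1, 6 genes were lower after anti-CD40 and 3 were higher, and the groups overlapped for none of the 9 ratios (exact permutation test, p = 0.0238 for each, unadjusted for the 9 ratios). The log2 ratio of Clec4f to Adgre1 was -4.41, -2.31, and -3.08 in the treated mice (2, 5, and 9) and ran from 0.885 in mouse 4 to 2.63 in mouse 12 among controls. The difference between the group means was -5.28 for Clec4f, -5.02 for Vsig4, and -3.90 for Cd163. It was -2.13 for Folr2, -2.0 for Cd5l, and -1.25 for Timd4. Clec4f, Vsig4, Folr2, Cd5l, and Timd4 thus decreased by more than Adgre1 did. The ratio of Cd163 supports nothing by itself, since that gene passed the filter through the control mice alone. In the other direction, the difference was 0.65 for Marco, 0.75 for Nr1h3, and 1.12 for Id3, each of which was higher relative to Adgre1. Adgre1 itself was at -1.49, and only 4.35% of all genes tested had a lower log2 fold change. Most genes tested thus stood higher relative to Adgre1, so a higher ratio is not particular to these 3. The share of all genes whose ratios did not overlap was not computed. For Id3 the ratio was 6.42, 6.64, and 6.85 in the treated mice and ran from 5.03 to 6.18 in the controls.

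The high Adgre1 of control mouse 4 enters every ratio. Without it the differences ranged from -5.51 for Clec4f to 1.14 for Id3, with those of Marco and Nr1h3 at 0.54 and 0.53 and all directions kept. With a pseudocount of 1 in place of 0.1, the ratios of Marco, Nr1h3, and Cd163 no longer passed (0.34, 0.42, and -1.68). Adgre1 is also made by macrophages that come from monocytes, and the share of its RNA from such cells was not tested.

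**Figure D3:**
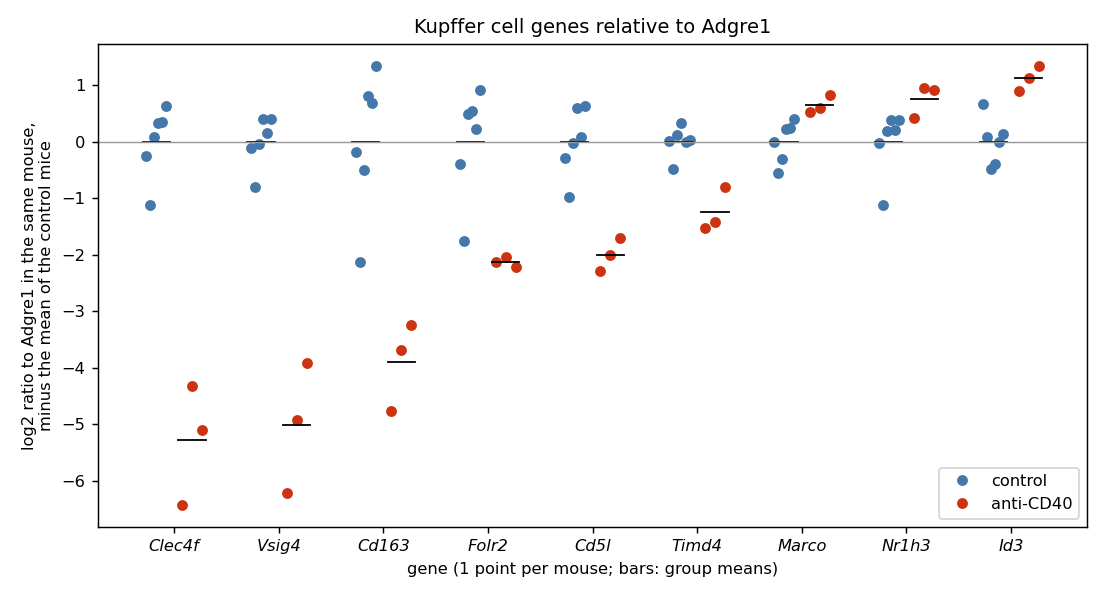
Log2 ratio of each gene to Adgre1 in the same liver after adding 0.1 to both, shown as the distance from the mean of the control mice, with 1 point per mouse and bars at the group means. The anti-CD40 mice (red) lie below all control mice (blue) for the 6 genes on the left and above them for Marco, Nr1h3, and Id3.

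No single control mouse was the highest or the lowest for all 10 genes. Mouse 4 was the highest control for 5 genes and the lowest for 2 (Cd163 and Folr2), mouse 3 was the lowest for 4, and mouse 12 was the highest for 3. Among the anti-CD40 mice, mouse 2 was the highest for 5 genes and mouse 5 the lowest for 6. Summed over the 10 genes, the treated livers had an FPKM of 277 to 334 and the controls 676 to 1060, the highest of which was mouse 4. Id3, which was not called, gave 517 of the sum in mouse 4.

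A further 17 genes known from Kupffer cells were listed, of which 9 fell, 3 rose, and 5 were not called, with a median log2 fold change of -1.24. Of all genes tested, 21.7% were called lower, 19.6% were lower without overlap, and 23.5% were called higher, so the share of the 17 that rose, 17.6%, lies near that of all genes. The 9 were Cd207, which encodes langerin (-3.39), the succinate receptor gene Sucnr1 (-3.09), Pcolce2 (-2.77), the ficolin gene Fcna (-2.41), Fabp7 (-2.41), Hpgd, which encodes a prostaglandin-degrading enzyme (-2.30), the neurotrophic factor receptor gene Gfra2 (-1.72), complement component C6 (-1.70), and the iron exporter Slc40a1 (-1.24). None of their groups overlapped. Like Cd163, Cd207 passed the filter through the control mice alone. Fcna, for example, averaged an FPKM of 30.8 ± 1.099 (SD, n = 3) in treated livers against 167 ± 35.4 (SD, n = 6) in controls (limma, adjusted p = 3.853e-06). Several of the 17, such as C6, Hpgd, and Sucnr1, are also expressed by other liver cells.

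The 3 that rose were Il18bp, Hmox1, and Spic. Without the Saa genes or without control mouse 4, 5 rose. Il18bp, which encodes the binding protein that neutralizes IL-18, increased from 7.98 ± 2.13 (SD, n = 6) in controls to 35.5 ± 2.11 (SD, n = 3), a log2 change of 2.18 (limma, adjusted p = 1.726e-05). Spic, a transcription factor of iron-recycling macrophages, increased by 1.11 on the log2 scale (limma, adjusted p = 0.0374). Its groups overlapped, since control mouse 4 had 2.42 and the anti-CD40 mice had between 2.22 and 2.51. The call of Spic was lost with quantile normalization. Those not called were Id1 (0.79), Cdh5 (0.43), Kcna2 (-0.01), Clec1b (-0.03), and Slc16a9 (-0.43). Without mouse 4, Id1 (0.92, adjusted p = 0.0381 from limma) and Cdh5 (0.52, adjusted p = 0.00928) also passed, which made 5 that rose. Cdh5 encodes the cadherin of endothelial cells, in which most of its RNA in liver is made.

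**Figure D4:**
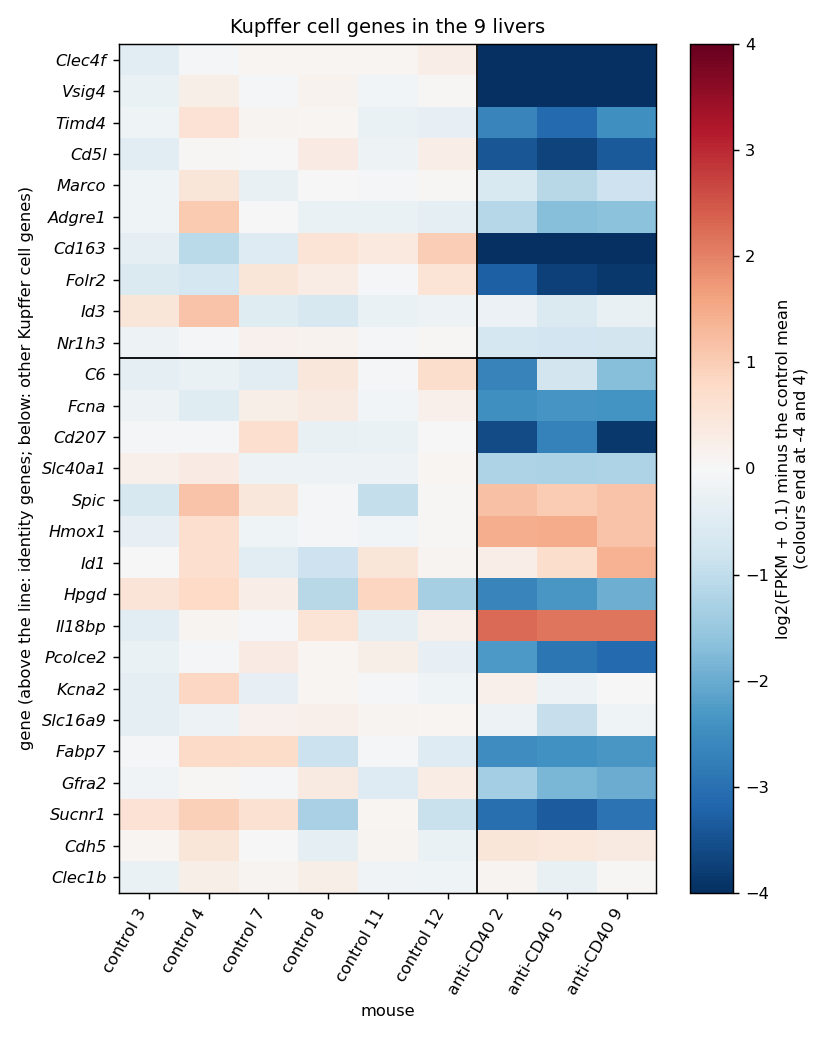
Log2(FPKM + 0.1) of the 10 identity genes (above the line) and 17 other Kupffer cell genes (below) in each liver, minus the mean of the control mice, with colors ending at -4 and 4. The anti-CD40 columns are blue for 9 identity genes and 9 of the others and red for Spic, Hmox1, and Il18bp, and control mouse 4 is red for Adgre1 and Id3 and blue for Cd163 and Folr2.

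Signals that maintain Kupffer cells were followed with 16 genes, 14 of which were tested: 4 rose, 2 fell, and 8 were not called, with a median log2 fold change of 0.13. Those shares, 28.6% and 14.3%, lie near the 23.5% and 21.7% over all genes. Csf1, which encodes the main growth factor of macrophages, rose from 3.07 ± 0.781 (SD, n = 6) in controls to 10.1 ± 0.916 (SD, n = 3), a log2 change of 1.71 (limma, adjusted p = 7.158e-05). Il34, the other ligand of the same receptor, rose by 0.79 on the log2 scale (adjusted p = 0.0208), with groups that overlapped. The receptor gene Csf1r was at 4.99 ± 0.329 (SD, n = 3) against 8.12 ± 2.94 (SD, n = 6), a log2 difference of -0.62 that was not called (adjusted p = 0.0837). The Notch ligand gene Dll4 differed by -0.39 and was not called either (adjusted p = 0.257). Gdf2, which encodes the ligand BMP9 and was picked after its value was seen, fell by 1.41 (limma, adjusted p = 0.000329). The other gene that fell, Smad5, was at -0.27 (limma, adjusted p = 0.0467). The count of niche genes depends on the scaling and on single mice, with 7 higher and 1 lower when the Saa genes were left out, 4 higher and 4 lower with quantile normalization, and 2 higher and 1 lower without anti-CD40 mouse 2. The lower count was also 1 without anti-CD40 mouse 5 or 9 or without control mouse 7, 8, 11, or 12.

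Of 12 genes that work with or under LXRα, 6 fell, 2 rose, and 4 were not called, with a median log2 fold change of -0.75. The share that fell was 50%, against 21.7% over all genes. The share that rose, 16.7%, lies near the 23.5% over all genes. The 2 that rose encode cholesterol exporters and are direct LXR targets: Abca1, from 4.61 ± 0.936 (SD, n = 6) in controls to 7.31 ± 1.28 (SD, n = 3) with a log2 change of 0.66 (limma, adjusted p = 0.0142), and Abcg1, with 1.18 (adjusted p = 0.00254). Rxra, which encodes the partner of LXRα on DNA, fell by 0.74 on the log2 scale (adjusted p = 0.0201), a call that was lost with quantile normalization and without the Saa genes. Nr1h2, which encodes LXRβ, was at -0.23 and was not called (adjusted p = 0.245). The other 5 that fell, named after their values were seen, had larger changes: the fatty acid desaturase gene Scd1 (-3.55), the lipid regulator Srebf1 (-2.54), the sterol exporters Abcg8 (-2.37) and Abcg5 (-1.98), and Apoe (-1.80). Reads of Srebf1, Abcg5, and Abcg8 are uncertain, since other gene names share their positions. The same holds for these genes named in other paragraphs: Cdh5, Csf1r, Dll4, Id4, Msr1, C3, Lrat, and Hba-a1. Without anti-CD40 mouse 5, 1 gene of the list rose. Many of these genes are abundant in hepatocytes, whose part in these values was not tested.

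Among 6 relatives and partners of Id3, 3 rose and 3 were not called, with a median log2 fold change of 0.55. The 50% that rose compares with 23.5% of all genes, and the 0% that fell with 21.7%. Tcf3, which encodes an E protein, rose from 1.52 ± 0.299 (SD, n = 6) in controls to 2.26 ± 0.0834 (SD, n = 3), a log2 change of 0.57 (limma, adjusted p = 0.0236) that lost its call with quantile normalization. Id2, at 0.33, and Id4, at 0.68, were not called, nor was Id1. Without anti-CD40 mouse 5 or 9, 1 of the 6 rose.

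Other scavenger receptors and receptors for dying cells gave a different count from the 10 genes, with 6 of 15 higher, 1 lower, and 8 not called and a median log2 fold change of 0.30. Those shares, 40% higher and 6.67% lower, compare with 23.5% and 21.7% over all genes. Of the 6 that rose, Havcr1 passed the filter through the anti-CD40 mice alone. Msr1, which encodes a scavenger receptor of the same class as Marco, rose from 10.2 ± 2.24 (SD, n = 6) in controls to 20.6 ± 4.06 (SD, n = 3), a log2 change of 1.03 (limma, adjusted p = 0.00159). Cd36 (-0.14), Scarb1 (0.17), and Colec12 (-0.18) were not called. The count was 10 higher when the Saa genes were left out, and the count lower was 3 with quantile normalization and 2 without control mouse 4 or anti-CD40 mouse 9. Of 13 ligands and partners of the receptors, 7 rose, 3 fell, and 3 were not called (median 0.64). The 23.08% that fell lies near the 21.7% over all genes, and the 53.85% that rose compares with 23.5%. C3, whose fragments Vsig4 binds, rose from 1219 ± 185 (SD, n = 6) in controls to 2991 ± 356 (SD, n = 3), a log2 change of 1.302 (limma, adjusted p = 8.284e-05). Cd59a, a complement inhibitor, fell by 0.66 (adjusted p = 0.00114), a call that was lost with quantile normalization and without the Saa genes.

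Genes shared by macrophages of many tissues gave a mixed count. Of 20, 9 rose, 4 fell, and 7 were not called, with a median log2 fold change of 0.44. The 20% that fell lies near the 21.7% of all genes called lower, and the 45% that rose compares with 23.5%. Their FPKM summed to 847 to 1071 in the treated livers and to 501 to 700 in the controls. The complement C1q genes, abundant in Kupffer cells, were among the 4 that fell. C1qa decreased from 193 ± 32.7 (SD, n = 6) in controls to 48.6 ± 5.42 (SD, n = 3), a log2 change of -1.98 (limma, adjusted p = 5.089e-06), and C1qb and C1qc fell by 1.34 and 2.17. Among the genes that rose, and chosen here after their values were seen, were Cd68, a lysosomal protein (log2 fold change 1.71), Spi1, which encodes PU.1 (1.92), and Cd14, the co-receptor for endotoxin (4.94).

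Markers of other cells moved with these results, to be read against the 23.5% of all genes tested that were called higher. All 12 monocyte genes rose, with a median log2 fold change of 3.55 and an FPKM summed over the list of 1527 to 1932 in the treated livers and 77.6 to 195 in the controls. Ly6c2, the surface marker of inflammatory monocytes, increased from 1.22 ± 0.737 (SD, n = 6) in controls to 58.5 ± 11.7 (SD, n = 3), a log2 change of 5.61 (limma, adjusted p = 2.221e-06). Ccr2 rose by 2.80 and Plac8 by 3.03. Of these 12, Vcan and Chil3 passed the filter through the anti-CD40 mice alone. All 10 neutrophil genes tested rose as well, with S100a8 at 7.00 on the log2 scale and summed values of 4231 to 5221 against 19.3 to 157, but 4 of the 10 (Cxcr2, Mmp8, Ngp, and Ltf) passed the filter in that way. The 7 B cell genes tested rose (summed FPKM 32.6 to 48.5 against 1.92 to 8.03), as did 8 of 9 T and NK cell genes (15.2 to 21.1 against 3.32 to 5.78) and 6 of 7 dendritic cell genes (13.3 to 17.6 against 3.51 to 6.80), with 1 gene of each list passing through the anti-CD40 mice alone. The counts of dendritic cell genes and of T and NK cell genes are not stable. With quantile normalization 2 and 5 rose, with a mean FPKM of at least 1 3 of each did, and with no filter 3 and 5 did. Dendritic cell genes gave 2 without anti-CD40 mouse 2 or 9 and 3 without mouse 5, and T and NK cell genes gave 5 without anti-CD40 mouse 9 or control mouse 3 or 11. Of the B cell genes 4 rose with a mean of at least 1. What part the added leukocyte RNA had in the lower values of the 10 genes was not tested.

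Cells that reside in the liver gave mixed counts, to be read against 21.7% lower and 23.5% higher over all genes tested. Of 12 hepatocyte genes, 8 fell and 2 rose (1 without anti-CD40 mouse 5), and their FPKM summed to 9758 to 11850 in the treated livers and 16700 to 32050 in the controls. The shares were 66.7% lower and 16.7% higher, the latter near that over all genes. Alb, which encodes albumin, decreased from 5040 ± 937 (SD, n = 6) in controls to 932 ± 151 (SD, n = 3), a log2 change of -2.43 (limma, adjusted p = 3.623e-06), Ttr fell by 1.96, and Apob rose by 0.74. In sinusoidal endothelium, 6 of 12 genes fell and 3 rose, near the 23.5% over all genes (summed FPKM 133 to 139 against 153 to 195). This balance turned when the Saa genes were left out, with 3 lower and 5 higher, and without anti-CD40 mouse 9 1 rose. Clec4g fell by 0.88 and Oit3 by 0.90, Lyve1 rose by 2.08, and Stab2, at -0.60, was not called. In stellate cells, 4 of 12 fell, among them Reln (-2.06), Lrat (-1.23), and Colec11 (-2.92), 3 rose, and Dcn, at -0.19, was not called (238 to 272 against 313 to 454). The 25% of stellate genes that rose lies near the 23.5% over all genes, and 33.3% fell. Among 7 erythroid genes tested limma called none and gave none an unadjusted p under 0.05, with summed values of 4184 to 14330 against 7501 to 50550, and Hba-a1 was listed at the floor in all mice. Without anti-CD40 mouse 2, 2 erythroid genes were called lower. Of 12 pancreatic acinar genes 1 was called higher, and their summed FPKM reached 1440 in anti-CD40 mouse 5 against 28.3 and 35.2 in the other two. Of the 12, 7 passed the filter in 1 group alone. The acinar count was 9 without anti-CD40 mouse 2, 0 with a pseudocount of 1 or no filter, 4 with a pseudocount of 0.01 or without the Saa genes, and 2 without control mouse 4, and 2 acinar genes were lower without anti-CD40 mouse 5. Without mouse 5 the 9 Kupffer cell identity genes were still called lower. What part these cells had in the values of the 10 genes was not tested. Clec4f, Vsig4, Folr2, and Cd5l fell by more than any gene in the hepatocyte, endothelial, and stellate lists. The lowest log2 fold changes of those lists were -2.49, -1.94, and -2.92, in that order, and this ranking of estimates was not tested. It does not extend to genes outside them. Scd1, counted with the LXRα genes, was at -3.55, a larger fall than that of Cd5l (-3.49). Cd163 is left out of the ranking, since it passed the filter through the control mice alone and its estimate depends strongly on the pseudocount. The falls of Marco, Nr1h3, and Adgre1 were within the ranges of all these lists, and that of Timd4 (-2.74) was within the range of the stellate genes only.

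**Figure D5:**
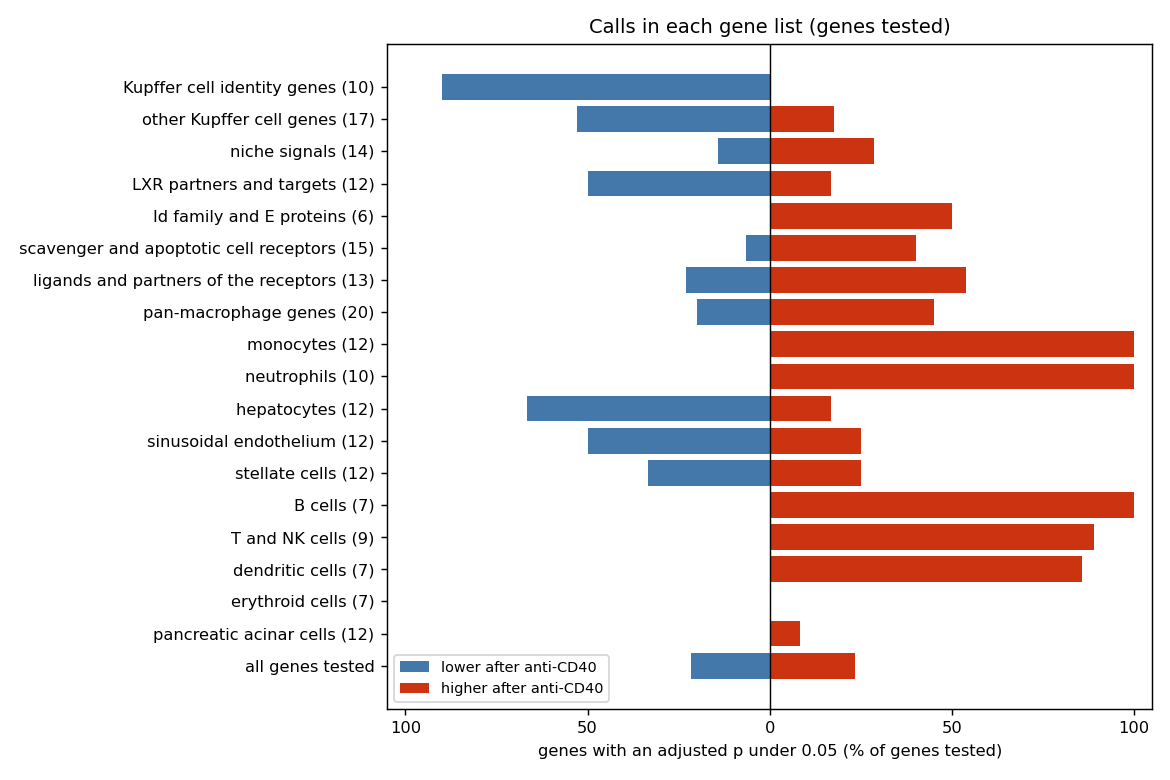
Share of the tested genes of each list called lower (blue, to the left) and higher (red, to the right) after anti-CD40, with the number tested in parentheses and all genes tested as the last bar. Of the Kupffer cell identity genes 90% are lower, with Cd163 passing the filter through the control mice alone, and 0% higher. All monocyte, neutrophil, and B cell genes tested are higher, some of which passed the filter through the anti-CD40 mice alone.

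The genes with the profile most like the mean of the 10 were sought among the 10155 genes that averaged an FPKM of 1 or more. Likeness was the root mean square difference between log2(FPKM + 0.1) profiles over the 9 mice, each centered on its control mean. The nearest was Cyp4f14, which encodes a cytochrome P450, with a difference of 0.21 log2 units. It was followed by BC089597, A230050P20Rik, which 2 gene names at 1 position share, and Colec11, with 0.21 each, and by Ugt2a3, which encodes a glucuronosyltransferase, with 0.25. Their log2 fold changes were between -3.37 and -2.89. None of these 5 genes was in the lists of Kupffer cell or macrophage genes, and Colec11 was in the stellate cell list. Because profiles were centered on the control mean, the difference between the groups weighs heavily in this measure.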

How the data were processed

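RNA from 9 bulk livers was made into QuantSeq 3′ libraries and sequenced on a NextSeq 500. Per the labels and methods, the authors aligned reads to mm10 with STAR and ran Cufflinks and Cuffdiff. The deposited values are FPKM, which by definition scale fragments to transcript length and to mapped reads, for 24341 gene names, with a floor of 0.01. Any further scaling of these values is not given in the sources used here, but their median ratios, 1.004 to 1.01, were nearly equal between mice. The annotation and the table's filter are not given in the sources used here. Read totals are not in the table, so depth is unknown, and the value of 1 read differed between mice from 0.884 to 1.15 times their geometric mean.

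Left out were 15 genes whose estimate had failed in 1 or more mice. Cuffdiff needs aligned reads, so log2(FPKM + 0.1) was tested with limma 3.58.1 in R 4.3.3 (eBayes with trend, 2-sided, Benjamini-Hochberg adjustment over the 13807 genes averaging 0.1 FPKM or more). Log2 fold changes are on that scale and understate those of low genes. Differences written as "-fold" are ratios of the group means of FPKM, without the 0.1. Single values were tested with an exact permutation test. Start positions are counted from 1. Whole reads were sought as the smallest counts, up to 400, within 0.1 of a whole number in every mouse, and were found for 4 of the 10 genes. Promoters came from RefSeq. Python 3.11.15, numpy 2.4.6, pandas 2.3.3, and matplotlib 3.10.9 did the rest. The scripts were tested on simulated data. The 10 genes and the other lists were chosen with earlier results of these data known. Named were the 10 genes, the 17 other Kupffer cell genes, the first 4 tested genes of every other list, and the 5 nearest profiles, except 1 gene that is not reported here. Alternatives were other pseudocounts, filters, scalings, eBayes settings, thresholds, and leaving out each mouse. The p-values measure the spread between these mice.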

Additional observations from a re-analysis of the deposited data

Results flagged for a closer look

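In 37 sets of 6 control values (FPKM of single genes, ratios to Adgre1, and summed lists), 8 had 1 mouse whose gap to its nearest neighbor, divided by the range, was above Dixon's 95% critical value for 6 samples. Chance flags about 1 in 20 sets, and many of these sets share genes and mice. Control mouse 4 was the highest control for Adgre1 (gap 0.834 of the range, FPKM 10.5) and for Marco (0.638, FPKM 51.1). It was also the highest for the summed FPKM of the 10 identity genes (0.667, summed FPKM 1060, of which Id3 alone gave 517). It was the lowest control for the ratio of Nr1h3 to Adgre1 (0.728, log2 ratio 3.58), which shares the high Adgre1 value. The same mouse was the highest control for the summed B cell genes (0.636, summed FPKM 8.03) and for the summed erythroid genes (0.861, summed FPKM 50550). Without mouse 4 the log2 fold change was -1.28 for Adgre1 and -0.74 for Marco, and both were still called (limma). The summed ligands and partners of the receptors were highest in control mouse 12 (0.686, summed FPKM 8164), and the summed pancreatic acinar genes were highest in control mouse 7 (0.680, summed FPKM 196). Whether these values have a common source was not tested.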

How the results depend on the processing

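Of the 10 identity genes, 9 were called lower in all 9 alternative fits and in each fit without 1 mouse, and 7 when a fold change of at least 2 was also required, since Marco (-0.84) and Nr1h3 (-0.73) are below it. Among the 9, Cd163 passed the filter through the control mice alone. Id3 turned to 0.10 with quantile normalization and was called in no setting. With each mouse left out, the log2 fold change ran from -7.14 to -6.38 for Clec4f, from -5.64 to -5.13 for Cd163, from -1.67 to -1.28 for Adgre1, from -0.96 to -0.71 for Marco, and from -0.50 to -0.14 for Id3. The difference of Vsig4 relative to Adgre1 ran from -5.57, without anti-CD40 mouse 9, to -4.41, without mouse 2. With a pseudocount of 1 the ratios to Adgre1 of Marco (0.34), Cd163 (-1.68), and Nr1h3 (0.42) no longer passed the exact permutation test. Over all genes, 3240 were higher and 2990 lower. Without Saa1, Saa2, and Saa3 and with rescaling, 5635 were higher and 1647 lower, so that 77.4% of calls were higher in place of 52.0%. With a fold change of at least 2 as well, 3142 were called, 1889 higher and 1253 lower. Of 62 called genes named from the lists, none changed sign under the 3 other scalings, 10 lost the call with quantile normalization, and 3 without the Saa genes. Median of ratios scaling, the remaining alternative, could change little, since those ratios were 1.004 to 1.01 before it. Other list counts moved by over 1.5 times in 65 of 680 values. No paired analysis was possible because the groups share no mouse numbers. Counting limits Clec4f and Vsig4 after anti-CD40, for which the values allow 14 and 30 reads in all at the least, and the reads of Cd163 were not recovered.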
